A study of Mus musculus with 8 samples.

Results

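The 9 microglia marker genes C1qa, C1qb, C1qc, Csf1r, Cx3cr1, P2ry12, Tmem119, Trem2 and Ctss were followed from the whole ventral pallidum (VP) lysate into the ribosome-bound RNA of its vGluT2 neurons. The members were chosen by name as widely used markers of microglia, and all 9 of them had a row among the 14353 genes of the deposited table. The mice were a cross of VGluT2-Cre with Rpl22 (RiboTag), homozygous for VGluT2-Cre and heterozygous for Rpl22, and received no treatment. In such mice Cre places a hemagglutinin (HA) tag on a ribosomal protein, so an antibody against HA pulls down ribosomes of cells that express, or once expressed, vGluT2. The INPUT libraries held RNA of the lysate, labelled as all neurons and glia, and the TRAP libraries held RNA collected with the HA antibody on beads. There were 4 pools of mice, and each pool gave 1 library of each fraction. VP1.6 held tissue of 3 male and 4 female mice aged 9 to 12 weeks. VP2.2 and VP2.11 each held 4 males and 6 females, and VP2.6 held 4 males and 7 females, all aged 10 to 16 weeks. All libraries share the genotype, and both sexes were mixed in every pool, so neither sex nor genotype can be compared.

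Microglia are the resident macrophages of the brain parenchyma. They enter the brain early in development from the yolk sac, depend on signalling through the receptor CSF1R for survival, survey the tissue with motile processes and clear dying cells and synapses. They are not of the neuronal lineage and are not known to express vGluT2. The members cover several of their functions, namely receptors for growth and guidance cues (Csf1r, Cx3cr1, P2ry12), a receptor for lipids and debris (Trem2), the chains of complement C1q (C1qa, C1qb, C1qc), a lysosomal protease (Ctss) and a surface protein of homeostatic microglia (Tmem119). The comparison asks how much of the INPUT level of each gene was still found in TRAP.

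Microglia transcripts were present in every INPUT library, where the 9 genes summed to 122 to 189 CPM by the deposited values. They were lower in TRAP, where they summed to 40.7 to 56.0 CPM. CPM is the read count scaled to the size of the library. The deposited CPM had also been evened out between pools, as described below, and differ from the levels of the reads. The summed TRAP level was 24.4% of the INPUT level in VP1.6, 27.6% in VP2.2, 24.9% in VP2.6 and 45.9% in VP2.11. Of the 36 within-pool comparisons, 9 genes in 4 pools, 35 were lower in TRAP, and the exception was C1qa in VP2.11. The median member kept 23.4% of its INPUT level, taking for each gene the median of its 4 pools. Single genes ranged from a median of 3.09% for Tmem119 to 72.5% for Csf1r. In bulk tissue, fewer cells of a type and less RNA per cell cannot be told apart, so the values describe RNA and not cell numbers.

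**Figure D1:**
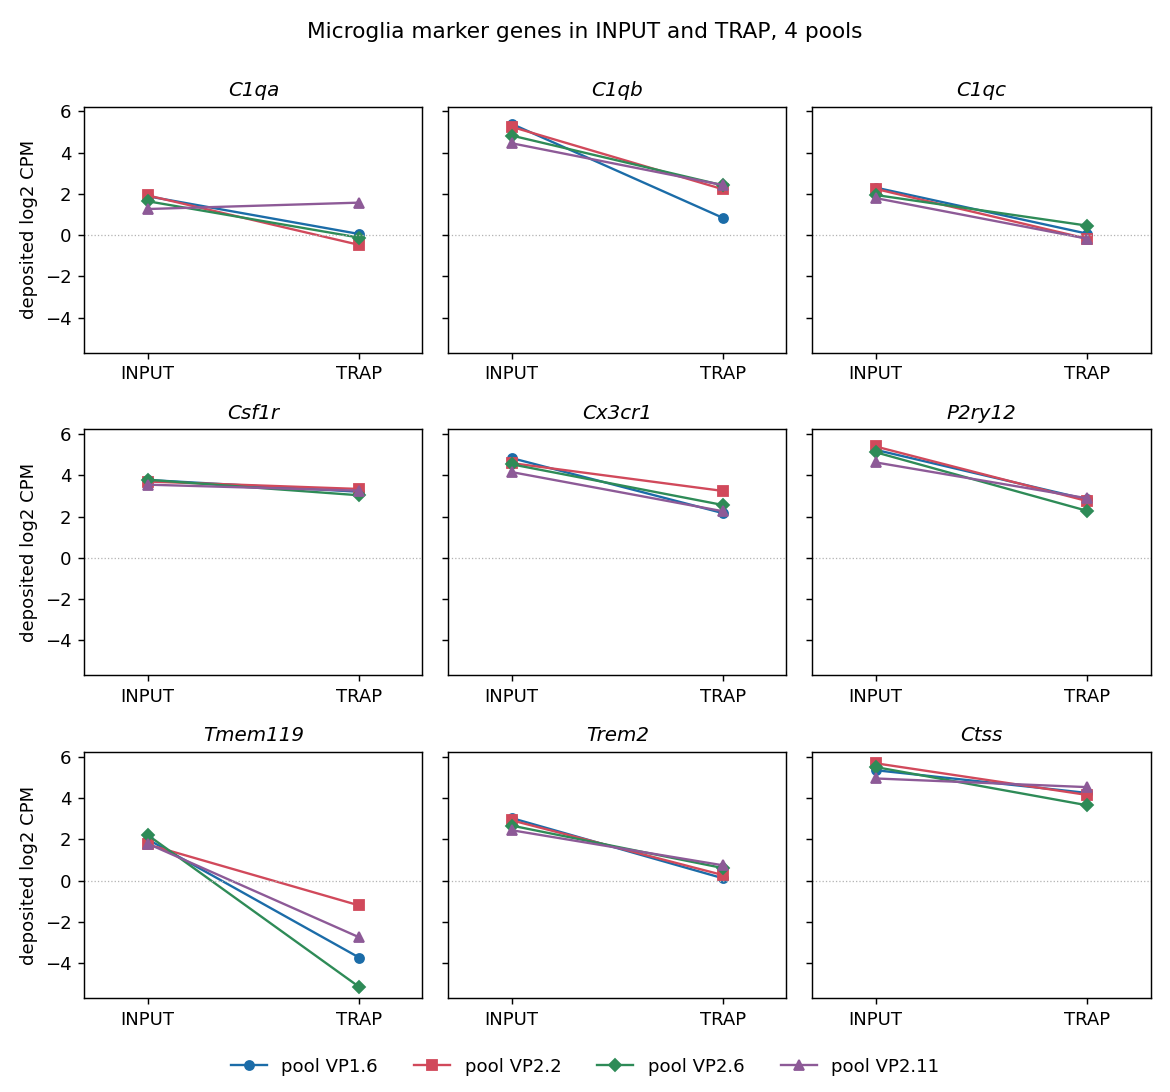
Deposited log2 CPM (y axis) of the 9 microglia marker genes in the INPUT and TRAP libraries of each pool (x axis), with 1 line per pool and a dotted line at 1 CPM. Lines fall from INPUT to TRAP for all genes and pools but C1qa in VP2.11, Csf1r falls least, and Tmem119 falls below 1 CPM in all 4 TRAP libraries.

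TRAP and INPUT were compared across all 14249 genes over 1 CPM in at least 3 libraries with limma 3.58.1, with the Benjamini-Hochberg adjustment of p-values over these genes. All 9 members passed this filter, Tmem119 through its INPUT libraries alone. Without a term for the pool, all 9 had an adjusted p under 0.05 and were lower in TRAP, as were 24.8% of all genes tested. With the pool as a block, 7 of the 9 were called lower against 16.8% of all genes, and C1qa and Csf1r were not called. The median log2 fold change of the 9 members was -2.03, where the median of all genes tested was -0.05. The fold changes are the same in both fits, and below both adjusted p-values are given with the pool as a block second.

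The 2 fits differ because of a property of the deposited values. For 14247 of the 14249 genes, the spans between the TRAP and INPUT values of the 4 pools had a point in common, and the remaining ones missed it by under 0.02 on the log2 scale. When each TRAP library was set beside the INPUT library of another pool, this held for 47.9% of genes. As a result, the 3471 genes that were lower in TRAP in every pool were the same number as those with every TRAP library below every INPUT library. They were 24.4% of all genes tested, and 23.3% had every TRAP library above every INPUT library. Fractions without overlap, as given below for single genes, say no more than the same sign in every pool. The level of a gene in a pool had thus been evened out between pools in the deposited values. The methods do not state this step. In VP2.2 and VP2.6 the within-pool differences of genes with low values still matched ratios of whole reads, as given below. For VP1.6 and VP2.11, which hold rounded values, this could not be checked. The step makes the libraries of 1 fraction look more alike than separate pools would be. The spread of the within-pool differences is therefore the error to read, and an exact two-sided permutation test over the libraries, which gave p = 0.0286 for 8 members and p = 0.0571 for C1qa with n = 4 per fraction, says no more than the signs in the 4 pools. The smallest exact two-sided p that 4 pairs allow is 0.125.

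Of the receptors, Csf1r was retained best. Csf1r encodes the receptor for CSF1 and IL-34 that microglia need to survive, and lies on chromosome 18 of GRCm38 from 61100598 to 61132149. It read 13.7, 13.02, 13.8 and 11.7 CPM in the INPUT libraries of VP1.6, then VP2.2, VP2.6, VP2.11 and 9.23, 10.1, 8.20 and 9.58 CPM in the TRAP libraries. Every TRAP library was below every INPUT library, but by little. TRAP kept 67.2%, 77.9%, 59.4% and 81.8% of INPUT in these pools, and the log2 fold change was -0.49 (standard error 0.15, and 0.28 with the pool as a block), with a limma adjusted p of 0.0222 and 0.186. The call was thus lost with the block, and it was also lost without the block when VP1.6 or VP2.6 was left out (adjusted p = 0.103 and 0.143 by limma). Csf1r shares 873 exonic bases with Hmgxb3 on the opposite strand. Only unambiguous reads were counted, and the counting is not stated to use strand, so reads from that stretch could have been left out. The INPUT level of Hmgxb3 was 6.56 ± 1.66 CPM and its TRAP level 4.71 ± 1.72 CPM (SD, n = 4).

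Cx3cr1, the receptor for the neuronal chemokine fractalkine, and P2ry12, the purinergic receptor that steers microglial processes towards ATP and ADP, were both called lower in both fits. Cx3cr1 (chromosome 9, 119901616 to 120069879) read 28.6, 24.2, 23.2 and 17.9 CPM in INPUT of VP1.6, then VP2.2, VP2.6, VP2.11 and 4.49, 9.48, 5.91 and 4.79 CPM in TRAP. The fractions did not overlap, and VP2.2 had the highest TRAP level. The share kept was 15.7% in VP1.6, 39.2% in VP2.2, 25.4% in VP2.6 and 26.8% in VP2.11, and the log2 fold change was -1.97 (standard error 0.25, and 0.30 with the block), with a limma adjusted p of 2.5e-04 and 2.8e-04. P2ry12 (chromosome 3, 59216272 to 59262871) read 37.8, 42.3, 34.8 and 24.8 CPM in INPUT in the same order of pools and 7.13, 6.76, 4.86 and 7.41 CPM in TRAP. The fractions did not overlap. The share kept in VP2.11, 29.9%, stood above the 18.9% of VP1.6, the 16.0% of VP2.2 and the 13.96% of VP2.6. Its log2 fold change was -2.41 (standard error 0.21, and 0.28 with the block), with a limma adjusted p of 6.0e-05 and 3.6e-05. Both genes share a few exonic bases with genes on the other strand, 78 for Cx3cr1 and 9 for P2ry12.

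Trem2, a receptor for lipids that signals through the adaptor encoded by Tyrobp, lies on chromosome 17 from 48346401 to 48354147. It read 8.17, 7.57, 6.34 and 5.43 CPM in INPUT of VP1.6, then VP2.2, VP2.6, VP2.11 and 1.08, 1.20, 1.52 and 1.67 CPM in TRAP. The fractions were far apart, with 13.2%, 15.9%, 24.0% and 30.7% of INPUT kept. The log2 fold change was -2.34 (standard error 0.26, and 0.44 with the block), with a limma adjusted p of 1.4e-04 and 0.00123.

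The 3 genes of complement C1q, whose protein products assemble into the molecule that starts the classical pathway and tags synapses for removal, lie next to each other on the minus strand of chromosome 4, C1qb from 136880129 to 136886187, C1qc from 136889804 to 136893065 and C1qa from 136895917 to 136898803. They differed from each other in the share kept. C1qb read 42.2, 38.2, 28.5 and 22.0 CPM in INPUT of VP1.6, then VP2.2, VP2.6, VP2.11 and 1.79, 4.68, 5.34 and 5.39 CPM in TRAP. It was the C1q gene with the highest level in INPUT and the lowest share in TRAP, 4.23% in VP1.6, 12.2% in VP2.2, 18.7% in VP2.6 and 24.5% in VP2.11. In the deposited levels, which had been evened out between pools, the TRAP library of VP1.6 stood apart from the other TRAP libraries for this gene. The log2 fold change of C1qb was -3.01 (standard error 0.36, and 0.37 with the block), with a limma adjusted p of 1.8e-04 and 6.4e-05.

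C1qc read 4.96, 4.74, 3.86 and 3.48 CPM in INPUT in the same order of pools and 1.05, 0.89, 1.38 and 0.89 CPM in TRAP, without overlap. It kept 21.3%, 18.8%, 35.7% and 25.6% of INPUT, and the log2 fold change was -2.03 (standard error 0.29, and 0.49 with the block), with a limma adjusted p of 4.2e-04 and 0.00656. C1qa read 3.71, 3.81, 3.13 and 2.41 CPM in INPUT and 1.04, 0.72, 0.92 and 2.99 CPM in TRAP. The fractions overlapped through VP2.11, whose TRAP level was above its INPUT level, with a share of 124% against 28.1% in VP1.6, 19.0% in VP2.2 and 29.5% in VP2.6. The log2 fold change of C1qa was -1.42 (standard error 0.44, and 0.57 with the block), and the limma adjusted p was 0.0218 without and 0.0682 with the block. Without VP2.11, the pool that went the other way, the log2 fold change was -1.997 and the adjusted p 0.00148 and 0.018. Leaving out any other pool ended the call, with limma adjusted p-values of 0.101 to 0.223 over both fits.

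Ctss, which encodes the lysosomal cysteine protease cathepsin S used in antigen processing, lies on chromosome 3 from 95526786 to 95556403. It read 40.8, 51.5, 45.4 and 30.9 CPM in INPUT of VP1.6, then VP2.2, VP2.6, VP2.11 and 19.0, 17.8, 12.6 and 23.1 CPM in TRAP, the highest TRAP level of any member in every pool. The fractions did not overlap. TRAP kept 46.6%, 34.5%, 27.7% and 74.7% of INPUT, and the log2 fold change was -1.23 (standard error 0.22, and 0.27 with the block), with a limma adjusted p of 0.00122 and 0.00329.

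Tmem119, a surface protein used to tell resident microglia from blood-derived macrophages, was the most depleted member. It lies on chromosome 5 from 113793729 to 113800516. It read 4.00, 3.36, 4.62 and 3.46 CPM in INPUT of VP1.6, then VP2.2, VP2.6, VP2.11 and 0.0752, 0.434, 0.0281 and 0.149 CPM in TRAP, which left a gap between the fractions in every pool. Its log2 fold change was -5.15 (standard error 0.76, and 0.94 with the block), with a limma adjusted p of 5.2e-04 and 0.00111. That fold change rests in part on the small number that stands in for no reads. With VP2.6 at the limit of 3 reads, the mean log2 difference was -4.50, and over the other 3 pools it was -4.41. The reads of VP1.6 and VP2.11 are not known. Their TRAP levels were below that of VP2.2, which rested on 6 reads, so these means may also rest on very few reads.

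**Figure D2:**
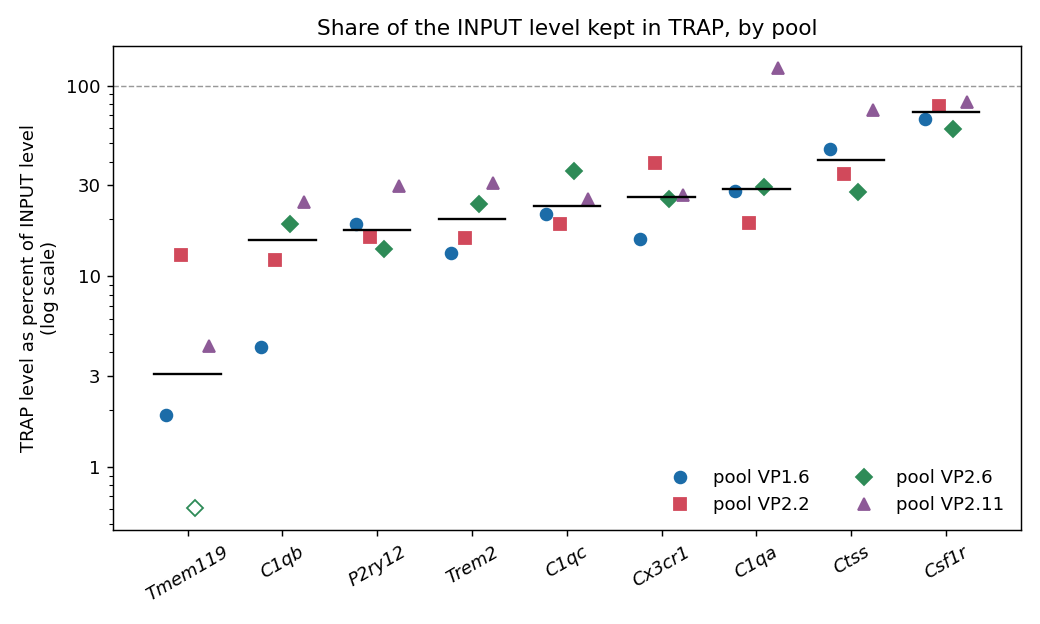
Share of the INPUT level kept in TRAP (percent, log scale on the y axis) for each member (x axis, ordered by mean log2 fold change) in the 4 pools, with a black line at the median of the pools, a dashed line at 100% and an open symbol for Tmem119 in VP2.6, where no TRAP read was found. Csf1r lies between 59.4% and 81.8%, most other points lie between 10% and 40%, and C1qa in VP2.11 is the only point above 100%.

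The low values of VP2.2 and VP2.6 still showed steps of whole reads, which gave the number of reads behind each member. In VP2.2 whole reads were found for 2913 of 2917 low genes (99.86%), at effective library sizes of about 38.7 M INPUT reads and 12.8 M TRAP reads, and in VP2.6 for 2827 of 2827 low genes, at 12.7 M (TRAP) and 25.1 M (INPUT). The values of VP1.6 INPUT and of both VP2.11 libraries were rounded, so the reads of those pools are not known. In VP2.2 the 9 members held 849 TRAP and 8704 INPUT reads together, and in VP2.6 669 and 5324. Shares from reads differ slightly from the deposited ratios, which add a small number to each count. Levels differed more. Csf1r in INPUT of VP2.2 was at 21.7 CPM by the reads and 13.02 CPM as deposited, and over the members in these pools the shift of the deposited level against that of the reads ran from -0.76 to 0.03 on the log2 scale. The precision was uneven. C1qa rested on 10 TRAP reads in VP2.2, a share of 18.1% with an exact 95% binomial interval of 8.53% to 34.1%, and on 15 in VP2.6, 28.6% with an interval of 15.5% to 49.5%. C1qc rested on 12 and 21 TRAP reads, and its 2 shares, 18.1% (9.18% to 32.2%) and 35.1% (20.9% to 56.1%), had overlapping intervals.

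Counting error was smaller for the more abundant members. C1qb had 68 TRAP and 1692 INPUT reads in VP2.2, a share of 12.2% (9.39% to 15.5%), and 94 and 1001 in VP2.6, a share of 18.7% (14.9% to 23.1%). P2ry12 had 84 and 1598 reads in VP2.2, a share of 15.9% (12.6% to 19.8%), and 75 and 1074 in VP2.6, a share of 13.9% (10.8% to 17.5%). The intervals of both genes overlapped between these pools, whereas those of Cx3cr1 did not, with 161 and 1245 reads, 39.1% (33.0% to 46.1%), in VP2.2 and 113 and 886 reads, 25.3% (20.6% to 30.8%), in VP2.6. Csf1r had 216 and 840 reads in VP2.2, a share of 77.8% (66.7% to 90.4%), and 153 and 513 in VP2.6, a share of 59.2% (49.1% to 71.1%). Both intervals of Csf1r stayed below 100%. In VP2.2 its interval was above those of all other members, while in VP2.6 it overlapped those of C1qa and C1qc. Tmem119 had 6 TRAP reads against 152 INPUT reads in VP2.2, a share of 11.9% (4.31% to 26.6%), and 0 against 163 in VP2.6, which allows a share of up to 3.66% at a floor of 3 reads, or a TRAP level at least 27.4-fold lower than INPUT against that floor, while the exact 95% interval reaches 4.55%. For Ctss in VP2.6 the numbers 166 and 1195 were the best match to the level but another pair with the same ratio came close, so the share is firmer than its interval. All these intervals cover counting error only, since the reads carry no molecular identifiers.

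**Figure D3:**
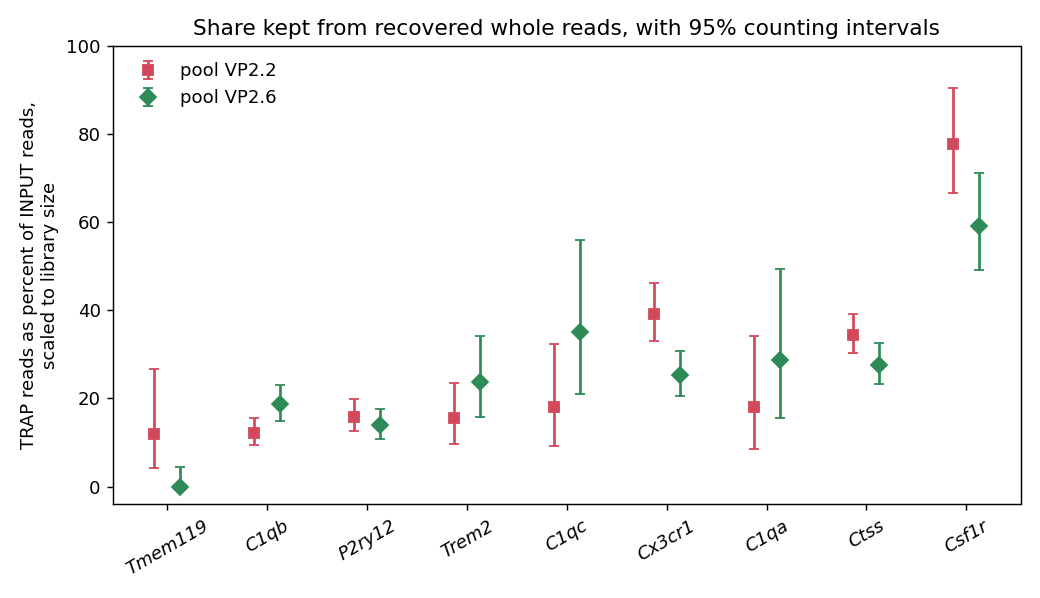
Share of INPUT kept in TRAP computed from recovered whole reads (percent, y axis) for each member (x axis) in pools VP2.2 and VP2.6, with exact 95% binomial intervals as bars. The interval of Csf1r lies above those of every other member in VP2.2 and overlaps those of C1qa and C1qc in VP2.6, and the Tmem119 point of VP2.6 is at 0 with an upper bound of 4.55%.

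The members could be put in a partial order by the share kept. Of the 36 pairs of members, 22 had the same order in all 4 pools by the deposited values. Csf1r kept a higher share than each of the other members in every pool, except C1qa in VP2.11. Tmem119 kept a lower share than each of the other members in every pool, except C1qb in VP2.2, where the deposited values gave 12.2% for C1qb and 12.9% for Tmem119 and the recovered reads gave 12.2% and 11.9%. From the lowest to the highest mean log2 fold change the order was Tmem119, C1qb, P2ry12, Trem2, C1qc, Cx3cr1, C1qa, Ctss and Csf1r. Among neighbours in this order only Ctss and Csf1r kept their places in all 4 pools, with Csf1r higher by 0.13 to 1.17 on the log2 scale. All other neighbours changed places in at least 1 pool by the deposited values, though Tmem119 and C1qb did so in VP2.2 alone and not by the reads. No test of these pairs was made.

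Levels per exon length gave a different order. In INPUT, Ctss reached 31.0 ± 6.40 CPM per kb and C1qb 30.1 ± 8.44 CPM per kb (SD, n = 4), which did not differ beyond their spread, followed by P2ry12 at 13.7 ± 2.92 and Cx3cr1 at 5.21 ± 0.98 CPM per kb, each apart from its neighbours in every library. C1qa at 3.14 ± 0.62, Csf1r at 2.26 ± 0.17, C1qc at 2.21 ± 0.36, Tmem119 at 1.67 ± 0.25 and Trem2 at 1.39 ± 0.25 CPM per kb overlapped with their neighbours. In TRAP, Ctss led at 13.3 ± 3.20 CPM per kb, above C1qb at 3.95 ± 1.57 and P2ry12 at 2.57 ± 0.45 CPM per kb. Csf1r, sixth in INPUT, followed in TRAP at 1.61 ± 0.14 CPM per kb, and Tmem119 was last at 0.0740 ± 0.0785 CPM per kb. These lengths join the exons of all annotated transcripts, so a gene that uses a short form has a higher level per base than given here. They also rest on the deposited CPM, which differ from the levels of the reads as given above.

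The pools differed in the members' share. VP2.11 had the highest share for 6 of the 9 members. Since levels were evened out between pools, only these shares and not the INPUT or TRAP levels are compared here. The lowest share was in VP2.6 for 4 members, in VP1.6 for 3 and in VP2.2 for 2, so no other pool was low throughout. The median difference of all genes tested was near 0 in each pool, from -0.04 to -0.01 on the log2 scale. Marker lists of other cells did not all move with VP2.11. The 6 border-associated macrophage genes summed to 274% of INPUT there and to 35.4% to 73.6% in the other pools. Of their 36.7 CPM in TRAP of VP2.11, Mrc1 alone gave 28.1 CPM, from 0.79 CPM in INPUT, so that sum rests mostly on this gene. The 6 endothelial and pericyte genes summed to 331% in VP2.11 against 71.9% to 158% in the others. The astrocyte genes were at 51.4% in VP2.11, within the 41.5% to 66.9% of the other pools, and the oligodendrocyte genes at 27.1%, below the 30.8% to 44.4% of the others. Slc17a6, the gene of vGluT2, was 1.84 higher in TRAP on the log2 scale in VP2.11 and 2.40 to 3.17 higher in the others. The part of these differences in the members' shares was not tested.

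Exon length moved with the fold changes over the whole table, with a Spearman's rho of 0.412 across the 14249 genes, which are not independent replicates, and shorter genes were lower in TRAP. The members were mostly shorter than the median gene of 4274 exonic bases, from 1.04 kb for C1qa and 1.09 kb for C1qb to 5.77 kb for Csf1r. With a smooth trend on exon length taken out of the differences, 7 of 9 members were called lower without the block, against 17.7% of all genes, and 6 with it, against 11.1%. C1qa moved from -1.42 to -0.55 and Ctss from -1.23 to -0.50 on the log2 scale and were called in neither fit. Csf1r moved from -0.49 to -0.58 and was called without the block alone. C1qb at -2.16, C1qc at -1.49, Cx3cr1 at -1.92, P2ry12 at -2.04, Tmem119 at -4.72 and Trem2 at -2.33 were called in both. The median of the members was -1.92 with the trend out. Whether exon length itself has a part in the members' values was not tested.

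**Figure D4:**
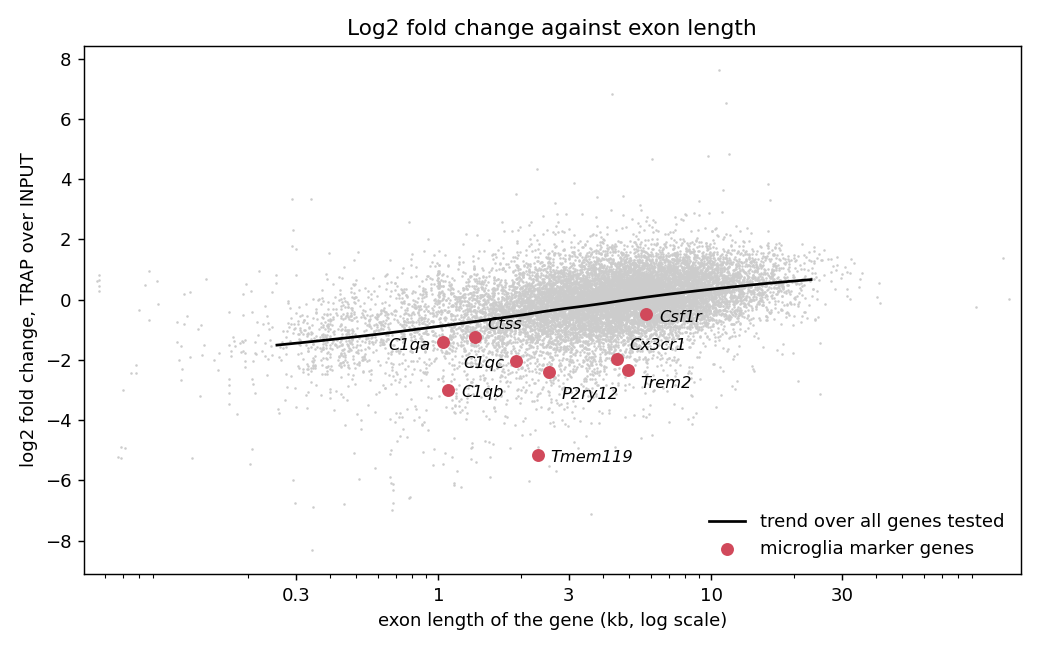
Log2 fold change of TRAP over INPUT (y axis) against exon length in kb (x axis, log scale) for all 14249 genes tested (grey), with the smooth trend (black) and the 9 members (red). C1qa, Ctss and Csf1r lie nearest to the trend at their lengths, while Tmem119, C1qb, P2ry12, C1qc, Cx3cr1 and Trem2 lie further below it.

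The promoters of 4 members called lower in both fits are shown as a description. TRAP against INPUT compares a pull-down with its lysate, and no link between these promoters and the lower TRAP levels was tested. Many genes of microglia are known to be driven by the ETS factor PU.1, whose core element holds the letters GAGGAA. RefSeq promoters (GRCm38.p6) were matched for 6 of the 9 members, and those whose 250 bases before the start overlap no annotated exon of the gene are given 5′ to 3′ on the strand of the gene, with GAGGAA, or TTCCTC for a match on the other strand, in capitals.
C1qb, chr4:136886201-136886450, minus strand: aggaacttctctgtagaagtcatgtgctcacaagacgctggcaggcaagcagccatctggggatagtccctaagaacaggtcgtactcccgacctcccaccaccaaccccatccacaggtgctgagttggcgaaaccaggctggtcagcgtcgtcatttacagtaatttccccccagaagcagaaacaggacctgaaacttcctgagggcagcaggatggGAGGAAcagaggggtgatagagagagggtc
Ctss, chr3:95526536-95526785, plus strand: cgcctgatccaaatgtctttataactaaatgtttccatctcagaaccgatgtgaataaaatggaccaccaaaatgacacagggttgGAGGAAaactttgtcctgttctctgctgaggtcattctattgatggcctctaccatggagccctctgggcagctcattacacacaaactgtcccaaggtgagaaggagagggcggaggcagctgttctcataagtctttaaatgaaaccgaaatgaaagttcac
Trem2, chr17:48346151-48346400, plus strand: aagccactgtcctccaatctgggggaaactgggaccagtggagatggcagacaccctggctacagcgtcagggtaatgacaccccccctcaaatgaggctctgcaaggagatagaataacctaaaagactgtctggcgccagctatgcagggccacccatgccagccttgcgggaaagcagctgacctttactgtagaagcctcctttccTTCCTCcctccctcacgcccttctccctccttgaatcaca
P2ry12, chr3:59262986-59263235, minus strand: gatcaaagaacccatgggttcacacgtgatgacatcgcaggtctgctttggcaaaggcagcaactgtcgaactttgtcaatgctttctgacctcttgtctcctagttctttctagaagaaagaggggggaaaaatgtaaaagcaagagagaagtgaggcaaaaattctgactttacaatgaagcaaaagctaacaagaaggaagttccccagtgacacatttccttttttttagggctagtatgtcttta
The element was present in 4 of the 6 member promoters, and the remaining match besides those placed here lay in a promoter not shown. Among those shown, it was on the gene's strand for C1qb, 30 bases before the start, and Ctss, 164 bases before. For Trem2 it was on the other strand, 40 bases before. Among all 32851 promoter entries, 23.3% held it within 250 bases. A match is a run of letters and no measured binding site, and its absence from the P2ry12 window says only that these letters are not there.

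Most of the wider microglia and macrophage list was also lower in TRAP. Over all genes tested, 24.8% were called lower and 23.2% higher without the block, and 16.8% and 15.4% with it, and the counts for this and the other lists stand beside these shares. Of 25 other microglia and macrophage genes tested, the fit without the block called 18 lower and 2 higher in TRAP, the fit with the block 17 lower and 0 higher, and the median log2 fold change was -1.61. The adaptors that carry the signal of Trem2 and of Fc receptors were among the lowest. Tyrobp (DAP12) was at 16.4 ± 1.44 CPM in INPUT and 0.717 ± 0.554 CPM in TRAP (SD, n = 4), a log2 fold change of -5.13 (limma adjusted p = 4.4e-04, and 4.3e-05 with the block). Tyrobp had 8 TRAP against 844 INPUT reads in VP2.2 and 16 against 352 in VP2.6. Fcer1g, the common Fc receptor gamma chain, fell by 4.14 on the log2 scale, and the tetraspanin gene Cd53 fell by 4.10. Both were called in both fits. Few TRAP reads lay behind them, 5 in VP2.2 and 7 in VP2.6 for Fcer1g and 9 and 23 for Cd53. Their within-pool differences ran from -5.50 to -2.35 for Fcer1g and from -6.45 to -2.66 for Cd53. Aif1, which encodes the microglial marker IBA1, was at 19.6 ± 3.47 CPM in INPUT and 1.58 ± 1.09 CPM in TRAP, with a log2 fold change of -3.95 (adjusted p = 2.5e-04, and 2.6e-05 with the block).

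Not every microglia gene was low in TRAP. Itgam, the gene of CD11b, was at 2.71, 3.47, 3.09 and 13.6 CPM in TRAP of VP1.6, then VP2.2, VP2.6, VP2.11 and at 2.00, 1.42, 1.91 and 1.52 CPM in INPUT. All 4 pools were higher in TRAP, VP2.11 by far the most, and the log2 fold change was 1.397 (adjusted p = 0.0321, and 0.0507 with the block). Without VP2.11 it was 0.81 (adjusted p = 0.0313, and 0.243 with the block), and without VP2.2 or VP2.6 Itgam was called in neither fit (adjusted p = 0.0579 to 0.101). Lgmn, a lysosomal protease gene, was higher in TRAP without the block, at 145 ± 27.7 CPM against 95.6 ± 19.5 CPM (SD, n = 4), with an adjusted p of 0.021 and 0.069, and was called in neither fit without VP1.6, VP2.6 or VP2.11 (adjusted p = 0.0561 to 0.347). Spi1, the gene of PU.1, was not analysed here.

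Markers of macrophages at the borders of the brain were mixed. Of 6 tested, the fit without the block called 3 lower and 1 higher in TRAP, and the fit with the block 2 lower and 1 higher, with a median log2 fold change of -0.89. Cbr2 fell by 4.75 on the log2 scale and was called in both fits, but had only 6 TRAP reads in VP2.2 and 3 in VP2.6. Pf4 had 0 TRAP reads against 104 INPUT reads in VP2.2 and 0 against 64 in VP2.6. A floor of 3 reads, which is not an exact limit, puts these shares at up to 8.72% and 9.31%. In VP2.11 Pf4 kept 83.8% of INPUT. Both genes were under 1 CPM in every TRAP library and passed the filter through INPUT libraries alone. Their fold changes thus rest in part on values near the floor. Cd163, a scavenger receptor, fell by 1.72 on the log2 scale without the block (adjusted p = 0.0418) and was not called with it (adjusted p = 0.0638). Mrc1, the gene of the mannose receptor CD206, was higher in TRAP, with a log2 fold change of 2.26 (adjusted p = 0.0329, and 0.0236 with the block), but its difference was -0.52 in VP1.6 and 5.15 in VP2.11. Without VP2.11 the log2 fold change of Mrc1 was 1.301 and the call was lost (adjusted p = 0.0963, and 0.155 with the block), as it was without VP2.2 (0.111 and 0.0825) and, in the fit without the block, without VP2.6 (0.0911). The call of Cd163 was lost without VP1.6, VP2.6 or VP2.11 (adjusted p = 0.0598, 0.182 and 0.113 without the block). That of Pf4 was lost with the block when VP2.2 was left out (adjusted p = 0.0628).

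The ligands and partners of the members were mixed. Of 12 tested, 4 were lower in both fits and 3 were higher without the block, 2 with it, with a median log2 fold change of -0.01. Cx3cl1, the neuronal ligand of Cx3cr1, was at 202, 152, 183 and 234 CPM in TRAP of VP1.6, then VP2.2, VP2.6, VP2.11 and at 83.3, 86.8, 87.0 and 89.3 CPM in INPUT. Its fractions were far apart in the direction opposite to that of its receptor, with a log2 fold change of 1.14 (limma adjusted p = 2.4e-04, and 0.0012 with the block). Tgfb2, a TGF-beta ligand, was also higher, by 1.06 on the log2 scale (adjusted p = 0.00128, and 0.0066 with the block). The ligands of Csf1r did not pass the test. Il34, the neuronal ligand, was at 39.1 ± 13.4 CPM in TRAP and 52.2 ± 14.8 CPM in INPUT (adjusted p = 0.195, and 0.253 with the block), and Csf1 at 5.85 ± 1.71 and 4.98 ± 0.30 CPM (adjusted p = 0.503, and 0.708 with the block).

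Apoe, a lipid carrier of glia that binds Trem2, was at 110 ± 48.1 CPM in INPUT and 15.1 ± 5.35 CPM in TRAP (SD, n = 4), with a log2 fold change of -2.84 (limma adjusted p = 1.7e-04, and 6.1e-06 with the block). Cst3, which encodes cystatin C, an inhibitor of the protease encoded by Ctss, fell by 2.00 on the log2 scale and kept 84.1% of INPUT in VP2.11, the pool where Ctss also kept most. Cd74, the invariant chain that cathepsin S cleaves, fell by 1.84. Both were called in both fits.

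Other complement genes were mixed. Of 10 complement genes tested, the fit without the block called 1 lower and 3 higher in TRAP, the fit with the block 0 lower and 2 higher, and the median log2 fold change was -0.22. C4b, the next component of the classical pathway, had an INPUT level of 3.73 ± 1.34 CPM and a TRAP level of 9.80 ± 1.01 CPM (SD, n = 4), a log2 fold change of 1.45 (limma adjusted p = 0.0012, and 0.00595 with the block). C3 did not pass the test, at 1.53 ± 0.47 CPM in TRAP and 1.13 ± 0.29 CPM in INPUT (adjusted p = 0.355, and 0.63 with the block). Serping1, the C1 inhibitor, fell by 1.09 on the log2 scale without the block (adjusted p = 0.0278) and was not called with it (adjusted p = 0.103), nor in either fit without VP1.6, VP2.2 or VP2.6 (adjusted p = 0.108 to 0.323). Of the complement list, 9 genes were not analysed here, C1ra, C1rb and C1s1 among them.

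**Figure D5:**
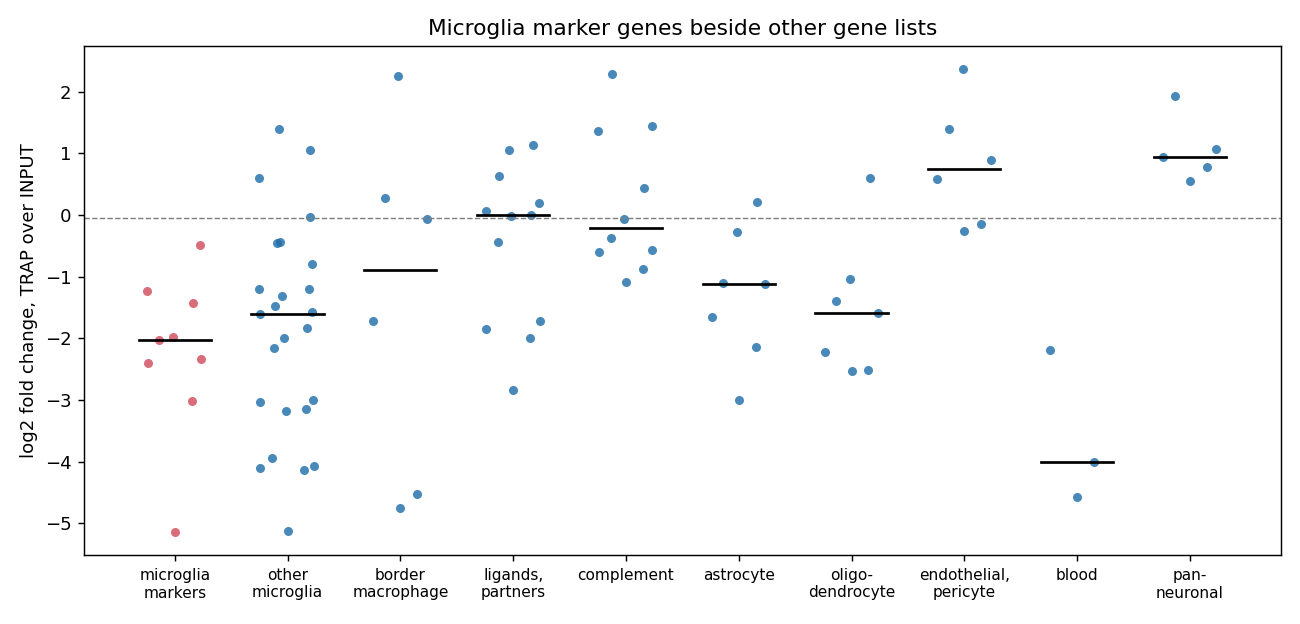
Log2 fold change of TRAP over INPUT (y axis) for each gene of the members (red) and of 9 other gene lists (blue, x axis), with a black line at each list's median and a dashed line at the median of all genes tested. The medians are -2.03 for the members, -1.61 for other microglia genes, -1.12 for astrocyte genes and -1.60 for oligodendrocyte genes. That of endothelial and pericyte genes is 0.74 and that of pan-neuronal genes 0.95.

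Beside other cells of the tissue, the members' median of -2.03 was lower than that of 7 astrocyte genes, -1.12, of which 5 were lower in both fits, and of 7 oligodendrocyte genes, -1.60, of which 6 were lower in both fits. The summed share kept was 24.4% to 45.9% for the members, 41.5% to 66.9% for the astrocyte genes and 27.1% to 44.4% for the oligodendrocyte genes, so the range of the members overlapped both of the others. The 3 blood genes tested were all lower in both fits and kept 2.28% to 9.54% in sum, from 413 to 1665 CPM in INPUT. The 5 pan-neuronal genes were higher in TRAP without the block and 4 of them with it, and Slc17a6 rose from 25.9 ± 10.3 CPM in INPUT to 143 ± 13.6 CPM in TRAP (SD, n = 4), called in both fits. No test of the lists against each other was made.

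The genes whose 4 within-pool differences lay nearest to the median profile of the members, -2.41, -2.41, -1.98 and -1.74 in VP1.6, then VP2.2, VP2.6, VP2.11, are in none of the lists of microglia genes. Among 11166 genes with a mean INPUT log2 CPM of at least 2, the 5 nearest were 2410006H16Rik, Gm12396, Cers2, Snhg12 and Zfas1, with a root mean square distance of 0.17 to 0.22 on the log2 scale over the 4 pools. Zfas1 and Snhg12 are small nucleolar RNA host genes, and Cers2 is the ceramide synthase of very long acyl chains, highly expressed in myelinating cells.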

How the data were processed

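VP tissue of 4 pools of vGluT2-Cre x RiboTag mice was homogenized per pool, and RNA of the lysate (INPUT) and of the HA pull-down (TRAP) was sequenced as single reads. The sequencing methods also name an unbound fraction, whereas the labels say Input. The text and the labels differ in the number of samples, and the 4 pools with labels were analysed. The authors aligned reads with STAR 2.5.1a, counted unambiguous, uniquely aligned reads per gene, scaled libraries by TMM and deposited 1 log2 CPM value per gene and library. The same table holds the authors' own fold changes and p-values, which were not used. The table had 14398 entries, from which 45 repeats of a gene were dropped.

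The 14249 genes above 1 CPM in 3 or more libraries were fitted with limma 3.58.1 (lmFit and eBayes with a trend, R 4.3.3), with the fraction alone, since the methods name no pool term, and with the pool as a block as the other fit. An adjusted p under 0.05 was the threshold. Because the deposited values are already log2 CPM, no count model was run. Pools pair the libraries, since the labels give both fractions the same pool and both come from 1 homogenate. Deviations of same-pool libraries from their fraction means had correlations of -0.75 to -0.50 across genes. CPM values given here are 2 to the power of the deposited log2 value, and a share kept is the ratio of TRAP to INPUT CPM within a pool. Whole reads were recovered from TRAP minus INPUT differences within a tolerance of 4e-09 on the log2 scale, tested on simulated data, as was the fit. Positions and exon lengths came from GENCODE M21 (GRCm38), matched for all 14353 genes by identifier. Promoters came from RefSeq. The members and lists were chosen with earlier results of these data known. The genes named were the 9 members, from each related list the 3 called genes with the lowest and the 2 with the highest fold change, a set of known partners of the members, and the 5 genes nearest to the members' profile. A few genes of the lists are not reported by name here. Without the block, p-values measure the spread between libraries of separate pools of mice, in values whose levels had been evened out between pools. With the block, they measure the spread of the differences within the 4 pools. Precision is limited by 4 pools, and by few TRAP reads for the members C1qa, C1qc and Tmem119. Few TRAP reads also limit genes of the other lists, such as Tyrobp, Fcer1g, Cd53, Cbr2, Pf4 and Irf8.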

Additional observations from a re-analysis of the deposited data

Results flagged for a closer look

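The TRAP level of C1qb in VP1.6, 0.84 log2 CPM, stood apart from the other TRAP libraries, which lay between 2.23 and 2.43 log2 CPM. The gap to the nearest library was 0.872 of the range of the 4 libraries. Deposited levels had been evened out between pools, and by the same measure the within-pool difference of C1qb did not stand out. Chance alone marks about 1 in 20 such groups, and 27 groups were examined (the INPUT level, TRAP level and difference of each member), so about 1.35 are expected to be marked and 1 was. The number of reads behind this value is not known, since the INPUT values of VP1.6 are rounded, and its cause was not tested. Without VP1.6, C1qb was called lower in TRAP in both fits.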

How the results depend on the processing

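Each result was recomputed with the pool as a replicate block, with array weights, with a pseudocount of 1 CPM, with no filter on low values, with median centring, with exon length taken out, with a minimum change of 1 in either direction on the log2 scale, and without each pool in turn. The number of members called lower stayed between 6 and 9 of 9, at 7 with the replicate block and 6 with the length trend out and the block. The number of genes differing between TRAP and INPUT was 6830 in the fit with the fraction alone, 4592 with the replicate block, 3775 with the length trend out and the block, 3528 with the minimum fold change and 8645 with array weights. Without single pools it was 4862 to 6894 with the fraction alone and 3232 to 4156 with the block. The median share kept, 23.4%, was 30.0% with a pseudocount of 1 CPM, and 21.3% to 25.6% without single pools. Of the genes recomputed in this way, those that changed direction had not passed the test. Il34 went from -0.44 to 0.0032 with array weights and to 0.085 with the length trend out, in both fits. Csf1 ran from -0.028 to 0.31 without single pools, below 0 without VP2.11. C1qb, C1qc, Cx3cr1, P2ry12, Tmem119 and Trem2 kept their direction and their side of the threshold under all 16 alternatives. C1qa and Csf1r each lost the call in 9 and Ctss in 2, both with the length trend out. The cause of these changes was not tested.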

Other observations

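Further genes of the microglia list, chosen here after their values were seen, are those of surface receptors and of transcription factors. Among receptors, the log2 fold change in TRAP was -3.00 for Gpr34, -3.15 for Siglech and -1.48 for P2ry13, all lower in 4 of 4 pools and called in both fits by limma. Sall1, a transcription factor of microglial identity, had a log2 fold change of -2.00, and that of Irf8, a myeloid transcription factor, was -2.16. Both were called in both fits, Irf8 on 6 TRAP reads in VP2.2 and 3 in VP2.6. Ptprc, the gene of the leukocyte surface protein CD45, had a log2 fold change of 1.05 and was called in neither fit, with a higher TRAP level in 3 of 4 pools.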
